A study of Drosophila melanogaster with 2 samples.

Results

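The data concern 10 genes that encode nuclear receptors of Drosophila melanogaster: Hr4, Hr38, Hr39, Hr51, Hr78, Hr96, svp, ERR, Hnf4 and dsf. They were chosen by name and not by a threshold on any value, with earlier results of these data known. They are 10 of the 13968 protein-coding genes of the annotation on the main chromosome arms. The question addressed was where the ETS-domain transcription factor Ets98B was found in and around them. Chromatin immunoprecipitation followed by sequencing (ChIP-seq) had been done on whole pupae aged 2 days of a strain with an Ets98B-eGFP insertion, with an antibody against the GFP tag. The group held 2 biological replicates and no other genotype, age or treatment, and no control sample was analysed here. Whole animals were used, so strong binding in few cells and weak binding in many cannot be told apart. The labels call the replicates biological and do not say how their animals were collected.

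A peak was counted for a gene when its summit lay in the gene or within 1000 bp of it. It also had to have a summit within 100 bp in the ranked peak list of each replicate, and such peaks are called matched. The ranked lists hold strong and weak peaks alike. The conservative list, which the authors thresholded for reproducibility between replicates, held 7157 peaks, of which 6429 were matched. The 10 genes held 33 conservative peaks, and 29 of these were matched. The signal value quoted for a peak is the one the authors deposited, and its scale is not stated. Read depth is unknown.

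Nuclear receptors are transcription factors with a zinc finger DNA-binding domain, and most also carry a domain that can bind a lipid-like ligand. Many bind copies of the half-site AGGTCA, alone, as homodimers or with a partner such as Usp. In the fly they are known for relaying the steroid ecdysone through moulting and metamorphosis, for setting metabolism, and for shaping neurons. ETS factors such as Ets98B recognise a core of GGAA or, in some members, GGAT.

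Hr4 held 17 of the 29 matched peaks, more than all the other genes of the group together. The summits of the 3 strongest of them are printed here with 50 bp on either side, because they carry the highest signal values of the group. The GGAA and GGAT cores, read on either strand, are in capitals, so that TTCC and ATCC mark cores on the minus strand. The sequence is the plus strand of the dm6 assembly, 5′ to 3′.
Hr4 intron, chrX:1951869-1951969, signal 795: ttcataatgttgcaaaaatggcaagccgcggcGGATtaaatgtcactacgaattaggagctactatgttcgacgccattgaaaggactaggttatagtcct
Hr4 intron, chrX:1947703-1947803, signal 694: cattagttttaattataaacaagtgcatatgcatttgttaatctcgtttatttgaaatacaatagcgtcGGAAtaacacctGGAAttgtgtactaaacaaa
Hr4 intron, chrX:1963873-1963973, signal 605: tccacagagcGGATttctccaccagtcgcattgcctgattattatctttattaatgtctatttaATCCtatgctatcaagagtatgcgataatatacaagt
The strongest peak had 1 GGAT core and no GGAA, the next had 2 GGAA cores and no GGAT, and the last had 2 GGAT cores and no GGAA.

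A further 4 summits were chosen for display after their values were seen. The Hr96 summit is the strongest outside Hr4, and the svp summit is the single one in that long gene. They are printed with the same cores in capitals.
Hr96 upstream, chr3R:25025037-25025137, signal 424: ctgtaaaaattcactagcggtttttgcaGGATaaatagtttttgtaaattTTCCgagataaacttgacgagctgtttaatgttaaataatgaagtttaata
svp intron, chr3R:12297358-12297458, signal 198: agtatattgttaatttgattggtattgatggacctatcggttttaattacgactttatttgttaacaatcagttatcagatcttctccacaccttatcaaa
The Hr38 promoter summit and an internal Hnf4 promoter summit are shown because of their base composition. In these sequences the capitals mark GAGAG, the word bound by GAGA factor, on either strand.
Hr38 upstream, chr2L:20714665-20714765, signal 171: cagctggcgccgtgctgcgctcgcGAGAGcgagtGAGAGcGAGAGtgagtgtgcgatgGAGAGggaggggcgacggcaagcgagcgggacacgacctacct
Hnf4 intron, chr2L:8692666-8692766, signal 125: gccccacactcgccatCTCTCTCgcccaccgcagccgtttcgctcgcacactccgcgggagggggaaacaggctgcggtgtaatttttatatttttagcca
The Hr96 window had 1 GGAA and 1 GGAT core and a GC content of 27.7%, and the svp window had neither core and 29.7% GC. The Hr38 window had 4 GAGAG words and 68.3% GC, the most GC-rich of the 29, and the Hnf4 window had 2 GAGAG words and 58.4% GC.

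Of the 10 nuclear receptor genes, 9 held at least 1 matched peak, and dsf held none. Among all protein-coding genes the share was 30.8% (4300 of 13968). Members are long, with a median length of 17.9 kb against 2.16 kb for all protein-coding genes, and longer genes held peaks more often. In genes of 20 kb or more, all 5 members (Hr4, Hr38, Hr39, svp and Hnf4) held a peak, against 65.3% of such genes. In genes under 5 kb, all 3 members (Hr78, Hr96 and ERR) did, against 22.8%. In genes of 5 to 20 kb, 1 of 2 members (Hr51) did, against 50.2%. No test was made, and with so few genes per length class the counts describe these genes only. The thresholded list of each replicate alone gave 8 members with a peak in each, and it gave 23 peaks in replicate 1 and 36 in replicate 2 (29.5 ± 9.19, SD, n = 2). Over the main arms these lists held 5850 peaks in replicate 1 and 7963 in replicate 2, a difference in the same direction.

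**Figure D1:**
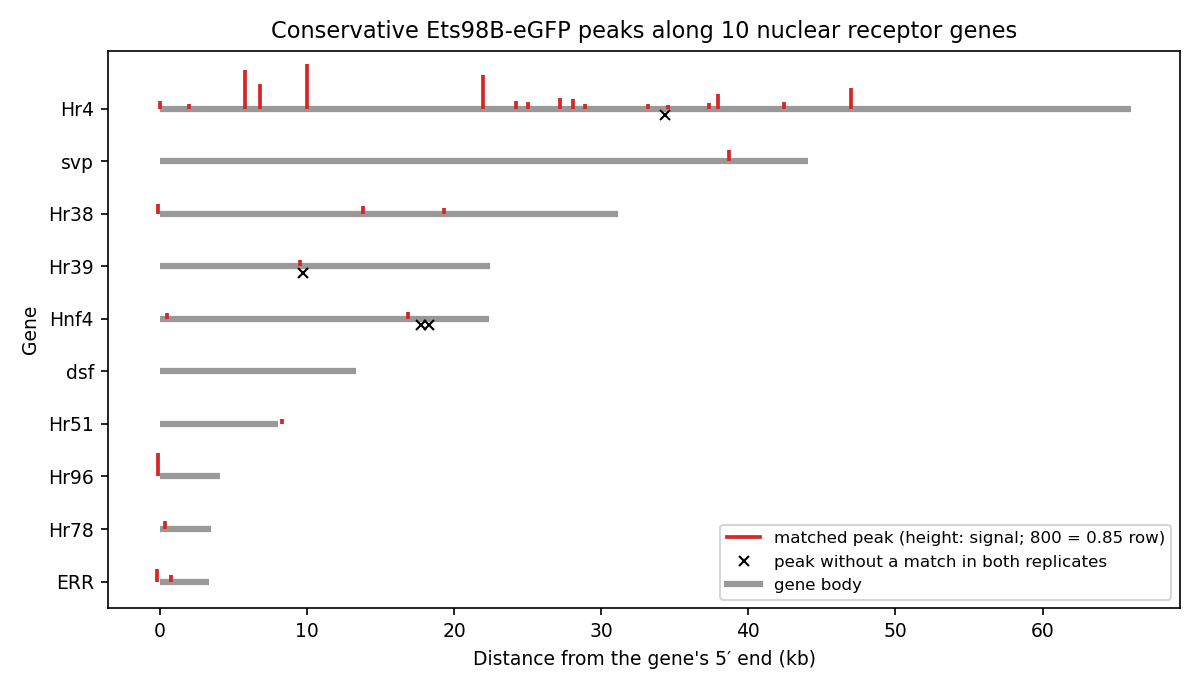
Conservative peaks along the 10 genes, drawn from each gene's 5′ end in kb (horizontal axis), with genes ordered by length (vertical axis). Red lines are the 29 matched peaks with height in proportion to signal, crosses are the 4 peaks without a match in both replicates, and grey bars are gene bodies; the peaks of Hr4 stretch from its 5′ end to 46.95 kb, and dsf has none.

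Most of the 29 summits lay inside introns. The count was 23 in introns, 4 upstream of the gene, 1 downstream and 1 in a 5′ UTR, with none in coding sequence. Hr4 held 16 of the 23 intronic summits, and those at Hr78, ERR and Hnf4 lay within 500 bp of a TSS. No such count over all matched peaks is given here for comparison. Summits within 500 bp of a TSS numbered 8 of 29 (27.6%), against 39.0% of all matched peaks. Hr4 set this share, with 1 of its 17 peaks at a TSS, while the other members had 7 of 12. Counted by gene, 6 of the 10 members (Hr4, Hr38, Hr78, Hr96, ERR and Hnf4) had a peak within 500 bp of a TSS of their own, against 20.1% of protein-coding genes. That share was not split by gene length or number of TSSs, and the Hr96 summit lay nearer to the TSS of EMC6.

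The signal values of the group were near those of the list. The median was 134 over the 29 peaks, with a range of 68.3 to 795, against 138 over all 6429 matched peaks. The median of the 12 peaks outside Hr4 was 135. The 642 strongest matched peaks (9.99%) held 5 of the 29, of which 4 were in Hr4 and 1 was at Hr96.

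Hr4 encodes an orphan receptor that acts downstream of ecdysone in the timing of growth and metamorphosis. Its gene (FBgn0264562; chrX:1941940-2007956, plus strand) is 66.0 kb long with 9 transcripts from 2 TSSs. Only 7 other genes held as many matched peaks or more. These were kirre and sbb with 24 each, Eip75B with 22, Svil and Tet with 18 each, and Snoo and mamo with 17 each, named here after their values were seen. Hr4 was the shortest gene of these 8, and its density of 2.50 peaks per 10 kb was exceeded by sbb alone (2.96). Among the 1020 protein-coding genes of 20 kb or more it ranked 18 by density, where the median gene had 0.36 peaks per 10 kb.

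The peaks of Hr4 ranged in signal from 68.3 to 795, and the 4 strongest lay within 21.98 kb of its 5′ end. The strongest lay 9.98 kb from the 5′ end (chrX:1951763-1952059), with a signal of 795 in the conservative list, 383 in replicate 1 and 425 in replicate 2, and ranked 142 in the list. The next lay at 5.81 kb (chrX:1947594-1947897), with 694 in the list, 315 in replicate 1 and 391 in replicate 2. The peak at 21.98 kb (chrX:1963794-1964061) had 605 in the list, 295 in replicate 1 and 311 in replicate 2. All of these were intronic in each of the 7 transcripts that span them, and each had at least 5813 bp to the nearest TSS.

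A further 3 intronic peaks of Hr4 had signals over 200. The one at 6.79 kb had 444 in the list, 212 in replicate 1 and 240 in replicate 2, and it lay less than 1 kb from its strong neighbour at 5.81 kb. At 46.95 kb the values were 371 in the list, 196 in replicate 1 and 184 in replicate 2, and this summit was 3407 bp from the internal TSS of the gene. At 37.93 kb they were 269 in the list, 127 in replicate 1 and 143 in replicate 2. In these 6 strong peaks the replicates were close, with ratios of replicate 2 to replicate 1 between 0.94 and 1.24.

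The promoter of Hr4 was at the middle of its range. The summit lay 17 bp upstream of the 5′ TSS and had a signal of 134 in the list, the median of its 17 peaks, 44.7 in replicate 1 and 90.7 in replicate 2. In the thresholded lists it was present in replicate 2 and absent from replicate 1. The other 10 peaks, all intronic, had signals from 68.3 to 196 and ratios from 0.62 to 2.13.

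Of these 10 peaks, 5 lay together between 24.22 and 28.86 kb from the 5′ end of Hr4. Their signals in the list were 131 at 24.22 kb (62.9 in replicate 1 and 78.8 in replicate 2), 116 at 25.03 kb (66.6 and 41.1) and 196 at 27.22 kb (119 and 75.5). The next were 164 at 28.06 kb (65.6 in replicate 1 and 98.8 in replicate 2) and 80.1 at 28.86 kb (30.7 and 52.4). Replicate 2 was the higher in 3 of the 5 and replicate 1 in the other 2. Further along, the signals were 86.9 at 33.17 kb (31.8 in replicate 1 and 55.1 in replicate 2), 68.3 at 34.56 kb (34.2 and 72.8) and 98.0 at 37.33 kb (35.8 and 61.2). Replicate 2 was the higher in all 3. The last ones were 113 at 42.41 kb (65.4 in replicate 1 and 40.8 in replicate 2) and 76.4 at 2.01 kb (51.8 and 36.1), both higher in replicate 1. A conservative peak at 34.34 kb (signal 107) overlapped the one at 34.56 kb and had no summit within 100 bp in either replicate. With a limit of 200 bp it was matched. The replicate summits of the peak at 34.56 kb lie within that limit of it, so this need not be a separate match.

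Gaps between neighbouring matched summits of Hr4 ran from 601 to 12004 bp with a median of 2209 bp, and the last matched summit lay 46.95 kb into the gene, so that its 3′ end carried none. At the internal TSS there was no matched peak. A peak 98 bp from it was present in the thresholded list of replicate 2 (signal 76.6) and had no summit within 100 bp in replicate 1. A weaker peak of that list, 105 bp from this TSS, had a signal of 14.9, with 14.3 in replicate 1. The other series-level thresholded list held a peak 95 bp from this TSS (signal 111), with no summit within 100 bp in replicate 1.

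Hr38, the fly member of the NR4A family, partners with Usp and is induced by neuronal activity. The gene (chr2L:20683462-20714588, minus strand) carried 3 matched peaks, 0.91 per 10 kb. That at the promoter, 127 bp upstream of its TSS, had a signal of 171 in the list, 44.3 in replicate 1 and 119 in replicate 2. Its ratio of 2.70 was the highest of all 29 peaks, and replicate 1 did not hold it in the thresholded list. An intronic peak at 13.83 kb had 144 in the list, 66.8 in replicate 1 and 67.4 in replicate 2, and was in both thresholded lists. One at 19.34 kb had 99.5 in the list, 55.9 in replicate 1 and 44.2 in replicate 2. The replicates thus differed in order: the promoter was the strongest of the 3 in replicate 2 and the weakest in replicate 1.

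ERR and Hnf4 are the metabolic receptors of the group: ERR drives genes of sugar breakdown, and Hnf4 those of fatty acid oxidation and mitochondria. ERR is short (3.3 kb; chr3L:8183361-8186671, minus strand) and held 2 peaks, the highest density of the group at 3.77 per 10 kb. Upstream of it, a peak had a signal of 231 in the list, 124 in replicate 1 and 105 in replicate 2. This summit was 191 bp from the ERR start but only 5 bp from the TSS of Atg18a, an autophagy gene, so it cannot be given to ERR alone. The peak in the ERR intron, 271 bp from an ERR TSS, had 121 in the list, 53.5 in replicate 1 and 50.2 in replicate 2. Both ERR peaks were in the thresholded lists of both replicates.

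Hnf4 (chr2L:8687226-8709611, minus strand) has 5 TSSs, and matched peaks lay within 500 bp of 3 of them. At the 5′ end a peak in a 5′ UTR had a signal of 96.3 in the list, 30.7 in replicate 1 and 61.6 in replicate 2. In the intron, 316 bp from an internal TSS, another had 125 in the list, 44.3 in replicate 1 and 72.0 in replicate 2. Both were higher in replicate 2, with ratios of 2.01 and 1.63, and neither was in the thresholded list of replicate 1. A further pair of conservative peaks near the internal TSSs, with signals of 70.3 and 17.9, had no summit within 100 bp in replicate 1 and was not counted as matched. Between their summits, 348 bp from an internal TSS, lay a peak of the thresholded list of replicate 1. Its signal was 61.4 in replicate 1 and 32.6 in replicate 2.

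Hr96 responds to foreign chemicals and regulates the handling of cholesterol and triglycerides. Its single peak (chr3R:25024977-25025220) had a signal of 424 in the list, 205 in replicate 1 and 220 in replicate 2, the strongest outside Hr4. It ranked 531 in the list. The summit lay between the TSS of Hr96, 148 bp away, and that of EMC6, 70 bp away, a gene of the endoplasmic reticulum membrane complex. The peak cannot be given to either gene alone.

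Hr39 and Hr78 are known from steroid responses. Hr39, a relative of ftz-f1 with a role in female reproductive glands, held 1 matched peak in its intron (chr2L:21246603-21246982), 9.54 kb from the 5′ end. Its signal was 112 in the list, 59.1 in replicate 1 and 57.0 in replicate 2. A second conservative summit 200 bp away, with a signal of 41.6, had no summit within 100 bp in either replicate. With a limit of 200 bp it was matched. The replicate summits of the first peak lie within that limit of it, so this need not be a separate match. Hr78, which is needed at the onset of metamorphosis, held 1 peak 41 bp from one of its 3 TSSs (chr3L:21496952-21497331). There the signal was 145 in the list, 87.9 in replicate 1 and 68.7 in replicate 2. That peak overlapped the antisense gene asRNA:CR43933, and it was absent from the thresholded list of replicate 2 and from the other series-level list.

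The remaining genes, svp, Hr51 and dsf, held 1 peak or none, as low as Hr39, Hr78 and Hr96 with 1 each. svp, the fly COUP-TF that sets photoreceptor identity, is 44.0 kb long and held 1 peak, or 0.22 per 10 kb, the lowest density among the members with a peak. This intronic summit (chr3R:12297346-12297501), 16256 bp from any TSS of svp, had a signal of 198 in the list, 86.3 in replicate 1 and 107 in replicate 2, and was in both thresholded lists. Hr51, which acts in mushroom body neurons, held 1 peak, 228 bp past its 3′ end on arm 2R (chr2R:15339422-15339801). Its signal was 89.2 in the list, 39.7 in replicate 1 and 46.2 in replicate 2. The nearest TSS, 860 bp away, was that of unc-5, a netrin receptor gene. dsf, a relative of tll required for sex-specific neurons and behaviour, held none: no ranked peak of the series-level list lay in its 13.3 kb or within 1000 bp. The ranked list of replicate 1 held 2 peaks there and that of replicate 2 held none.

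The replicates ranked the 29 peaks together about as closely as they ranked the whole list, but less closely outside Hr4. Spearman's rho between the signals of replicates 2 and 1 was 0.68 over the 29 peaks, against 0.71 over all 6429 matched peaks. It was 0.77 over the 17 peaks of Hr4 and 0.47 over the 12 outside Hr4. These values are given as a description, since all peaks come from the same 2 libraries. Within the 100 bp that the match allowed, the replicate summits lay a median of 16 bp (replicate 1) and 5 bp (replicate 2) from the conservative summit, and at most 65 and 90 bp. For the 8 peaks with a signal over 200 the ratio of replicate 2 to replicate 1 ran from 0.84 to 1.24, and for the 21 others from 0.62 to 2.70. Over all matched peaks it ran from 0.40 to 6.74 for the 1881 over 200 and from 0.15 to 4.57 for the 4548 others. Peaks with a summit within 100 bp in the thresholded lists of both replicates numbered 16 of 29 (55.2%), against 66.4% of all matched peaks.

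**Figure D2:**
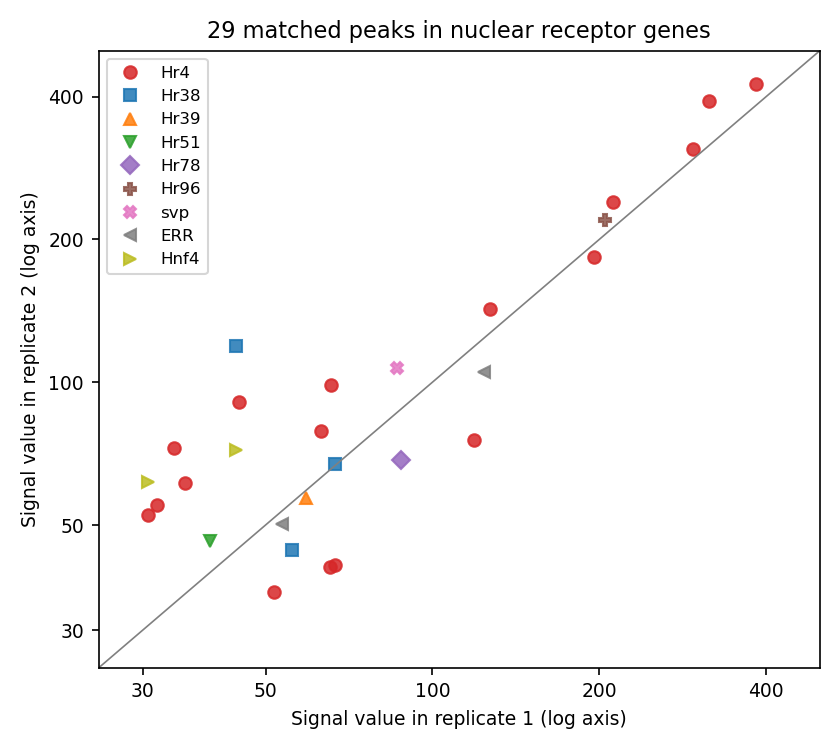
Signal value of the 29 matched peaks in replicate 1 (horizontal, log axis) and replicate 2 (vertical, log axis), with 1 marker style per gene and a line of equality. The strong peaks of Hr4 and that of Hr96 lie near the line, while the Hr38 promoter lies farthest above it at a ratio of 2.70.

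The ratio between replicates varied with base composition. Among the 29 peaks, the 9 whose summit window had at least 45% GC had a median ratio of replicate 2 to replicate 1 of 1.73, and the 20 others had 1.06. Over all matched peaks the same medians were 1.47 (1590 peaks) and 1.03 (4839 peaks), so the same direction held over the whole list. Spearman's rho between GC content and the ratio was 0.44 over the 29 and 0.35 over the 6429 peaks, again as a description. The 4 member peaks with a GAGAG word, at Hr38, in Hr4 and at both Hnf4 peaks, had ratios from 1.63 to 2.70, and the 25 without it had a median of 1.07. All 4 were among the 9 peaks of at least 45% GC. The rest of those 9, all in Hr4, lacked the word and had ratios of 2.03, 1.73, 2.13, 0.62 and 0.94. No member peak of lower GC held the word, so in the members it could not be looked at apart from high GC content. For all matched peaks the medians were 1.37 with the word and 1.07 without. The limit of 45% was set after the values were seen, and which property of the libraries the ratio follows was not tested.

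**Figure D3:**
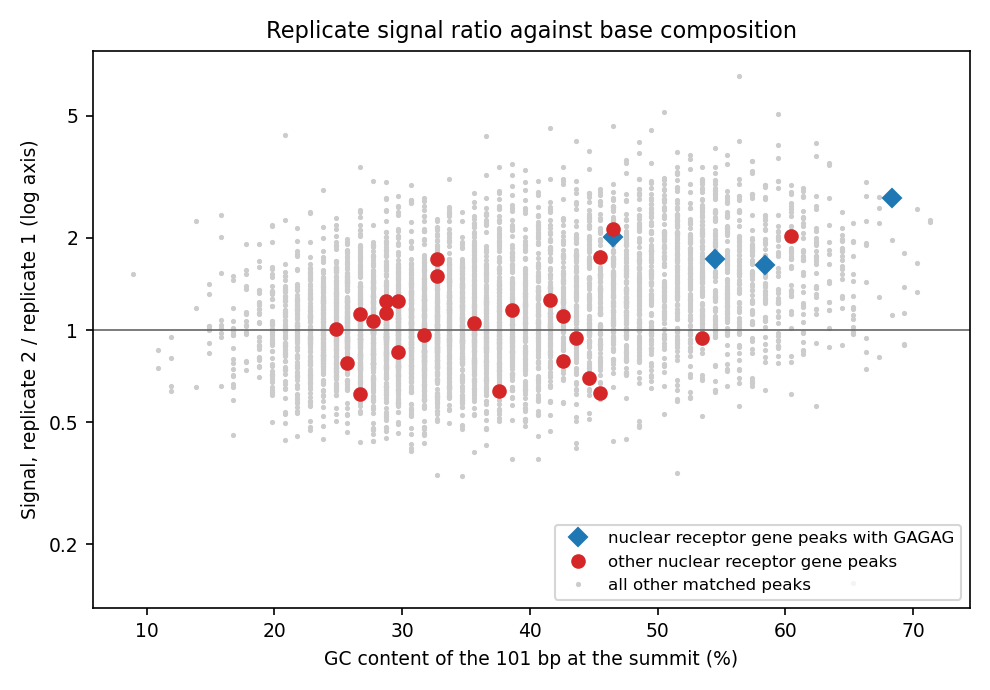
Ratio of signal in replicate 2 to replicate 1 (vertical, log axis) against the GC content of the window at the summit (horizontal, %) for member peaks with GAGAG (blue), other member peaks (red) and all other matched peaks (grey). The 4 blue points lie between 1.63 and 2.70, above the line of equal signal.

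Words at the summits were searched on both strands in the same windows of 50 bp to either side. The half-site AGGTCA, the letters that nuclear receptors themselves read, was in 0 of the 29 windows and in 1.79% of all matched peaks. With 3 counts taken as the limit and the windows as independent, 0 of 29 allows a share of up to 10.3%. The 0 therefore does not set the members apart from the list, and 17 of the windows are from Hr4 alone. GGAA was in 17 of 29 (58.6%), against 49.2% of all matched peaks, and GGAT was in 12 (41.4%), against 30.8%. For Hr4 alone the counts were 10 of 17 for GGAA and 9 of 17 (52.9%) for GGAT. The 12 peaks outside Hr4 had GGAA in 7 (58.3%) and GGAT in 3, so that only with Hr4 was the GGAT share of the members above that of all matched peaks. GAGAG was in 4 (13.8%), against 15.6%, and TATAAAA in 3 (10.3%), against 8.23%. Median GC content was 38.6% over the member windows and 34.7% over all. GGAA, GGAT and GAGAG can overlap each other, and a match says only that the letters are present.

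Signal differed between classes of peak width. Of the 29 peaks, 15 had a width of 380 bp, the fixed width of most peaks in the list, and had a median signal of 99.5, while the 14 narrower ones had a median of 250. Over all matched peaks, the medians were 104 for a width of 380 bp and 235 for narrower peaks, while the 56 wider peaks had a median of 734. No member peak was wider than 380 bp.

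Just outside the limits used here lay several further peaks. Beyond 1000 bp but within 5000 bp of a member there were 4 matched peaks. One lay 1609 bp upstream of Hr38 (signal 120), and Hr38 was its nearest TSS. The others lay around Hr4 but nearer to the TSSs of CG3587 (signal 131), PIG-K (116) and east (98.7). The authors' scaled reproducibility score was at least 830 in the conservative list. The lowest score among matched member peaks was 870, for the Hr4 intron peak with a signal of 80.1. In the ranked list, peaks at ERR (score 828, signal 73.0), Hnf4 (816, signal 84.6) and Hr4 (786, signal 94.0) were just under the limit. At the Hr39 promoter, 55 bp from its TSS, a ranked peak reached a score of 958 (signal 96.1, with 36.1 in replicate 1 and 50.6 in replicate 2) but was not in the conservative list. It was 1 of 174 such peaks on the main arms, removed by a step that neither the labels nor the file lists describe.

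The 10 genes were set beside the rest of the nuclear receptor family. Of 8 others (EcR, usp, Eip75B, Eip78C, Hr3, ftz-f1, Hr83 and tll), 6 held a matched peak, with 58 peaks in all and a median signal of 132, against 29 peaks and 134 in the 10 members. Density was 1.22 peaks per 10 kb over the members and 1.70 over the others. Without Hr4 the members had 0.70 per 10 kb together, against 0.62 for all protein-coding genes together. The medians per gene for these sets were 0.91 and 0.00 per 10 kb. The highest signals of the others were 702 in Eip75B, 372 in Hr3 and 298 in EcR, below the 795 of Hr4. The knirps group, whose proteins have the DNA-binding domain without a ligand-binding one, had peaks at knrl and eg but not kni. All 5 genes of receptor coregulators (tai, Smr, rig, bon and trr) held peaks, the strongest in tai (770), Smr (324) and bon (181). Of all protein-coding genes 30.8% held a peak, of those of 5 to 20 kb 50.2%, and of those of 20 kb or more 65.3%. Median lengths were 36.6 kb for the 8 other receptors, 8.90 kb for the knirps group and 19.4 kb for the coregulators. In genes of 20 kb or more, 2 of 5 members (Hr4 and Hr38) held at least 3 peaks, against 38.2% of all such genes.

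**Figure D4:**
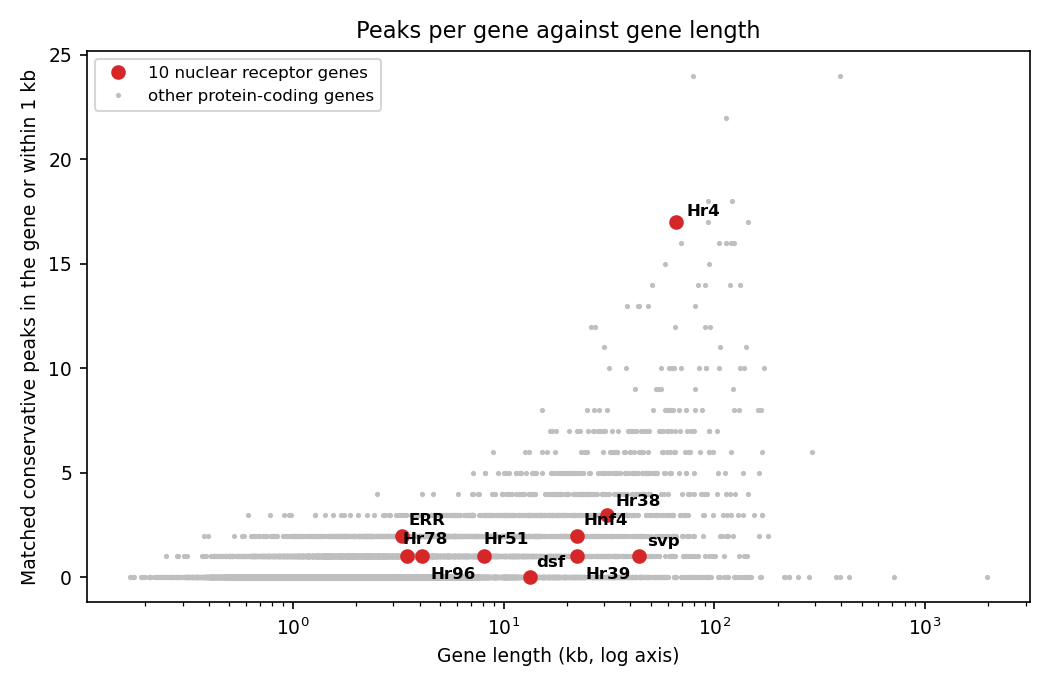
Number of matched peaks in each gene or within 1 kb of it (vertical) against gene length in kb (horizontal, log axis) for the 10 nuclear receptor genes (red, named) and all other protein-coding genes (grey). Hr4, with 17 peaks, stands near the top of the genes of its length, while the other members have 0 to 3.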

How the data were processed

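ChIP-seq peaks of 2 replicates of 1 group were used. Chromatin was sonicated to 200 to 800 bp and mapped to dm6, per the labels. The sources used here do not name the aligner or the peak caller. For each replicate and for the series, the authors deposited ranked and thresholded peak lists, with a signal value per peak and a scaled reproducibility score of at most 1000. The signal tracks were not used. Unused were 16 further columns of the ranked series-level lists, which no label ties to a sample. The lists hold no read counts, so depth and its precision are unknown.

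Genes came from Ensembl release 115 and sequence from the Release 6 assembly, both in dm6 coordinates, and no peak passed the end of an arm. Summits were assigned to genes with Python 3.11.15. The lookup was checked on simulated summits whose expected counts used the same limits, so the limits and the matching were not tested. Correlations used SciPy 1.17.1. All 10 members were named with every peak they hold, and other lists by their strongest genes, at most 3 each. Members and lists were chosen with earlier results of these data known. With 1 group, no condition was compared and no test was made. The alternatives changed the peak list, the match, the gene margin, the windows and the replicate.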

Additional observations from a re-analysis of the deposited data

How the results depend on the processing

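The number of members with a peak stayed between 6 and 9 under all alternatives. Leaving out each replicate in turn meant using the thresholded list of the other alone, with no match asked, as in the counts given earlier. It gave 8 members both times, 23 to 36 peaks, 5 to 12 peaks at a TSS and 0 to 1 peaks with AGGTCA. Median signals were 65.3 to 66.8 on the replicates' own scale. With the stronger conservative peaks alone there were 16 peaks, 5 of them at a TSS, and a median of 215. Overlap with thresholded peaks of both replicates, asked in place of the match, gave 19 peaks in 6 genes. Of these, 3 were at a TSS, and the median was 196. This count took in conservative peaks that were not matched, such as the second one of Hr39. Gene bodies alone gave 4 TSS peaks and a median of 128. The median was 118 in the other series-level list, 145 with a match within 50 bp, and 125 with no match required, an alternative added after the data were seen. Hr4 held the most peaks of the 10 genes under every alternative (10 to 21), and dsf held none. No paired analysis was possible because there is 1 group and no test. Unknown depth limits what the absence of a peak shows.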

Other observations

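Several of the 10 genes had further peaks in lists other than the conservative one. The internal promoter of svp, 127 bp from a TSS, had a peak in the other series-level list with a signal of 82.7, with 18.3 in replicate 1 and 60.8 in replicate 2. ERR had 2 further peaks in that list. One lay in the intron (signal 59.3, with 26.7 in replicate 1 and 41.7 in replicate 2), and the other lay 856 bp upstream (signal 73.0, with 35.9 in replicate 1 and 35.4 in replicate 2). The upstream one is the ranked peak with a score of 828 given earlier. It lies farther from ERR than the peak at the Atg18a TSS, so it cannot be given to ERR alone.

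In Hr4, the thresholded list of replicate 1 held a peak in the 3′ UTR (signal 44.9, and 21.1 in replicate 2), a place where the conservative list had none. An intron peak of Hr4 in replicate 2 (signal 63.2), 3467 bp from the internal TSS, had no summit within 100 bp in replicate 1. An intron peak of Hr39 (signal 54.1) was likewise in replicate 2 alone.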
